A study of Mus musculus with 40 samples.

Results

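The 10 genes described here are immediate early genes, the genes that cells switch on within minutes of a stimulus without first making new protein. They were taken by name from a list of *Fos*, *Fosb*, *Jun*, *Junb*, *Egr1*, *Egr2*, *Egr3*, *Atf3*, *Nr4a1* and *Ier2*, and all 10 were found among the 21204 genes tested. Bulk RNA sequencing had measured whole pieces of rib tissue, holding bone, marrow and intercostal muscle, from wild-type mice around a large rib resection. Immature mice were 7 weeks old by the labels and mature mice over 10 months old. Tissue of each age was taken at baseline, which the study defines as the state before resection although the labels describe all tissue as taken afterwards, and at days 0, 2, 5 and 14 after it (dpr). The study calls the tissue sampled at 0, 2 and 5dpr callus, so the tissue held may differ between baseline and later stages. The labels do not give the time between surgery and collection at 0dpr. Each of the 10 groups held n = 4 libraries, apart from n = 3 for mature mice at 5dpr, whose replicate 2 was not analysed here. The labels give replicate numbers but do not tie them to separate animals, so that p-values measure the spread between these samples. In bulk tissue, a change in the number of cells of a type and a change in RNA per cell cannot be told apart.

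Most immediate early genes encode transcription factors. The FOS and JUN proteins pair to form AP-1, EGR proteins are zinc finger factors, NR4A1 is an orphan nuclear receptor, and all of them act on later genes of the response. Their own genes are switched on by factors that already wait in the resting cell, such as serum response factor, which binds the CArG box, and CREB, which binds the cAMP response element (CRE). In bone, AP-1 proteins are known for their part in osteoblast and osteoclast differentiation, and in muscle and immune cells these genes respond to injury, stretch and cytokines.

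Sequences before the start site show how such elements are spread over the members. RefSeq promoters (GRCm38.p6) were found for 7 of the 10 genes, not for *Egr1*, *Egr3* and *Ier2*, and the 250 bases before each start were searched on both strands. *Fos*, *Nr4a1* and *Egr2* are printed because their courses differed: *Fos* had its highest mean at 0dpr, *Nr4a1* its lowest mean at 2dpr, and *Egr2* its highest mean at 2dpr. Capitals mark the CRE core TGACG, which reads CGTCA where it lies on the other strand, and the CArG box. None of the 3 windows overlaps an annotated exon, and that of *Egr2* is 1 of several starts RefSeq lists for the gene.
Fos, chr12:85473640-85473889, plus strand: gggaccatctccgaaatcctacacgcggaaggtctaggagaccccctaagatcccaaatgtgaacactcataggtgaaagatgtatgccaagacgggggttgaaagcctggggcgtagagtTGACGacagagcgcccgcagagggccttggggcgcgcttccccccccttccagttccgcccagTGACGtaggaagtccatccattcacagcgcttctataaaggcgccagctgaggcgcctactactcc
Nr4a1, chr15:101266596-101266845, plus strand: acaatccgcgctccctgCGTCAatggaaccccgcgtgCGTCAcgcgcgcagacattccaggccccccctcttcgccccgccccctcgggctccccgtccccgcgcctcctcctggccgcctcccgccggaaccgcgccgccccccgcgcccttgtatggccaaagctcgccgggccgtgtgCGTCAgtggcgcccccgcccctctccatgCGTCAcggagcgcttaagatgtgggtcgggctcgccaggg
Egr2, chr10:67537619-67537868, plus strand: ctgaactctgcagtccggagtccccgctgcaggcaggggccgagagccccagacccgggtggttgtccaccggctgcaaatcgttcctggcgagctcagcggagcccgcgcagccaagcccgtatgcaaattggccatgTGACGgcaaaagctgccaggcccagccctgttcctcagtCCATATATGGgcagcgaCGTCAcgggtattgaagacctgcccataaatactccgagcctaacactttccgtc
The *Fos* window holds TGACG 129 and 66 bases before the start, counted from the base of the match farthest from it. The *Nr4a1* window holds 4 CRE cores, all on the minus strand. The *Egr2* window holds a CArG box 72 bases before the start, with a CRE core on each side of it.
The CRE core was found in 6 of the 7 genes (*Fos*, *Fosb*, *Junb*, *Egr2*, *Atf3* and *Nr4a1*) and in 17.7% of all 32817 promoters of the same length. The CArG box was found in 1 of the 7 genes, *Egr2*, and in 1.47% of all promoters. The longer palindrome TGACGTCA, which contains the core, was found in 0 of the 7 and in 1.55% of all promoters. The AP-1 site, TGACTCA or TGAGTCA, was also found in 0 of the 7, against 4.46% of all promoters. The EGR site GCGNGGGCG was found in *Fosb* and *Nr4a1* and in 4.70% of all promoters. A gene was counted if any start listed for it had a match, while the shares are of single promoters. A match is a run of letters in this window and says nothing of binding. Bases farther than 250 from a start were not searched.

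Libraries held 6057756 to 21537070 counts (median 9087417). Markers of muscle, bone, neutrophils, macrophages and erythroid cells were all detected in each group. The share of counts from mitochondrial genes was 1.51 to 8.63%, with the highest values at 0dpr. Reads per library were ample for most members (medians of 116 to 729 for *Fos*, *Jun*, *Junb*, *Egr1*, *Egr2*, *Atf3*, *Nr4a1* and *Ier2*), fewer for *Fosb* (median 35), and 0 to 33 for *Egr3*, at which depth only large changes of *Egr3* could be detected. All levels below are CPM, the reads of a gene per 1000000 reads of its library after TMM scaling, and a log2 fold change is given ± its standard error.

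At 0dpr, *Fos*, *Fosb*, *Jun*, *Egr1* and *Ier2* stood above baseline at both ages. Of the 10 genes, 7 rose in immature mice at an adjusted p under 0.05 in the quasi-likelihood test of edgeR, against 5.98% of all genes tested called higher, and 0 fell, against 4.66% called lower. In mature mice 5 rose, against 11.9% of all genes, and 0 fell, against 10.6%. Baseline and 0dpr ranges did not overlap for 6 members in immature mice, all higher at 0dpr, against 6.50% of all genes, and for 5 in mature mice, against 12.6%. *Junb* and *Atf3* rose in immature mice as well. With the spread taken from the immature baseline and 0dpr libraries alone, edgeR called 2 of the 7, *Fos* and *Fosb*. The adjusted p of the other 5 was 0.0613 to 0.164. That fit called 34 of all 21204 genes higher and 14 lower. *Egr2* and *Atf3* rose from 0 to 2dpr at both ages, against 21.8% of all genes called higher in immature and 22.7% in mature mice. In immature mice *Fos*, *Fosb*, *Egr1* and *Nr4a1* fell, against 22.2% called lower, and in mature mice *Fosb*, *Egr1* and *Nr4a1* fell, against 24.9%. Ranges did not overlap for 1 higher and 3 lower members in immature mice, against 20.4% and 18.0% of all genes, and for 2 higher and 1 lower in mature mice, against 14.7% and 19.9%. The shares called from 0 to 2dpr were near the background for the 2 of 10 genes that rose at each age and for the 3 of 10 that fell in mature mice. The median log2 fold change of the 10 genes from baseline to 0dpr was 1.66 in immature and 1.03 in mature mice, beside 0.00 and -0.02 over all genes tested. Both comparisons use the same 0dpr libraries.

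**Figure D1:**
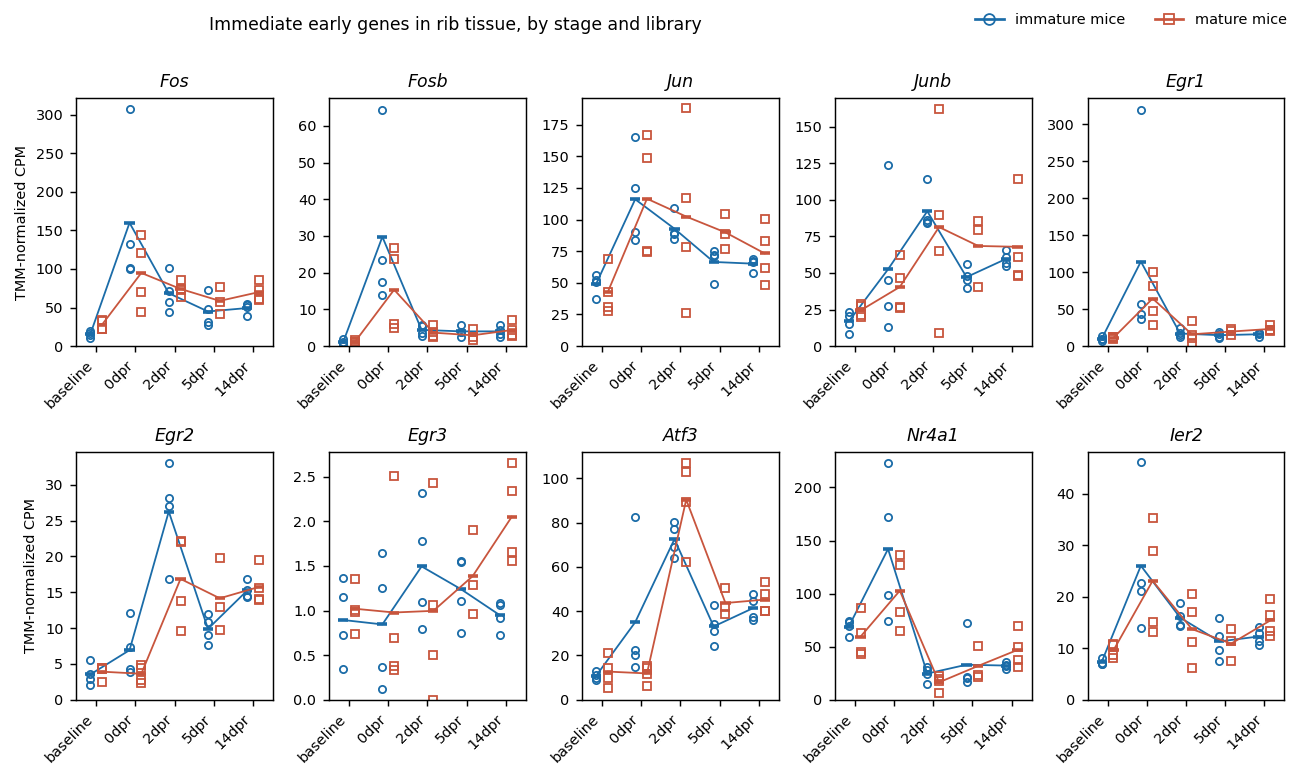
Level of each of the 10 genes (vertical axis, TMM-normalized CPM, from 0) at each stage (horizontal axis). Open symbols are single libraries of immature (circles) and mature mice (squares), thick bars are group means, and lines join the means. *Fos*, *Fosb*, *Jun*, *Egr1*, *Nr4a1* and *Ier2* have their highest means at 0dpr, and *Junb*, *Egr2* and *Atf3* at 2dpr.

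*Fos*, the founding AP-1 subunit, had the smallest p-value of all 21204 genes at 0dpr in immature mice. In immature mice it was at 11.0, 14.0, 16.6 and 19.9 CPM at baseline and at 99.5, 101, 132 and 307 CPM at 0dpr. The 2 groups do not overlap, and 1 library, replicate 1, stands far above the other three at 0dpr. The log2 fold change was 3.38 ± 0.360 (adjusted p = 9.91e-07, edgeR). In mature mice *Fos* was at 21.9, 22.8, 33.0 and 33.8 CPM at baseline and at 44.3, 70.3, 121 and 144 CPM at 0dpr, a log2 fold change of 1.77 ± 0.337 (adjusted p = 0.000315). Here too each 0dpr library lies above each baseline library, by less than in immature mice. From 0 to 2dpr *Fos* fell in immature mice, to 44.8, 56.9, 71.6 and 101 CPM, with a log2 fold change of -1.22 ± 0.328 (adjusted p = 0.0026). That call was lost without immature 0dpr replicate 1 (log2 fold change -0.67, adjusted p = 0.073). In mature mice *Fos* was at 63.5, 73.4, 74.0 and 85.7 CPM at 2dpr, inside the 0dpr range, with a log2 fold change of -0.35 ± 0.324 (adjusted p = 0.388). *Fos* lies on chromosome 12 of GRCm38 from 85473890 to 85477273.

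*Fosb*, a close relative of *Fos* that also forms AP-1 with JUN proteins, had the largest fold change of the 10 genes at both ages. In immature mice it went from 0.457, 0.670, 1.02 and 2.06 CPM at baseline to 13.8, 17.5, 23.4 and 64.4 CPM at 0dpr, a log2 fold change of 4.80 ± 0.582 (adjusted p = 5.78e-06, edgeR). Mature libraries went from 0.591, 1.15, 1.17 and 1.68 CPM to 4.86, 5.97, 23.8 and 26.8 CPM, a log2 fold change of 3.73 ± 0.563 (adjusted p = 3.36e-05). Neither age shows overlap between baseline and 0dpr, and the mature 0dpr libraries form a low and a high pair. At 2dpr *Fosb* was back at 2.85 to 5.81 CPM in immature mice (log2 fold change against 0dpr -2.75 ± 0.508, adjusted p = 3.31e-05). Mature mice had 2.5 to 5.70 CPM (log2 fold change -2.07 ± 0.5, adjusted p = 0.000831). Both falls were called in each fit that left out 1 library. Without immature 0dpr replicate 1 the immature values were 4.07 at 0dpr against baseline and -2.03 from 0 to 2dpr.

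*Jun*, the main partner of FOS proteins in AP-1, rose less. In immature mice it was at 36.9, 50.4, 52.0 and 56.1 CPM at baseline and at 84.1, 89.9, 125 and 165 CPM at 0dpr, a log2 fold change of 1.25 ± 0.346 (adjusted p = 0.0197, edgeR). In mature mice it was at 27.7, 30.8, 42.7 and 69.2 CPM at baseline and at 74.7, 75.2, 149 and 167 CPM at 0dpr, a log2 fold change of 1.45 ± 0.348 (adjusted p = 0.00264). The groups do not overlap at either age. The immature call was lost without 0dpr replicate 1 (adjusted p = 0.0841) and without baseline replicate 6 (adjusted p = 0.0733). At 2dpr *Jun* did not differ from 0dpr by the test at either age (log2 fold changes -0.32 and -0.18, adjusted p = 0.472 and 0.69), with 84.7 to 109 CPM in immature mice. Mature 2dpr libraries were far apart, at 26.2, 78.2, 117 and 188 CPM, below and above the mature 0dpr range.

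*Junb*, which can replace JUN in AP-1 and often restrains it, had its highest mean at 2dpr. In immature mice it was at 8.61, 14.9, 20.4 and 23.6 CPM at baseline and at 13.0, 27.5, 45.5 and 124 CPM at 0dpr, a log2 fold change of 1.63 ± 0.516 (adjusted p = 0.0371, edgeR) with overlapping groups. Replicate 1 alone reached 124 CPM, and without it the log2 fold change was 0.73 (adjusted p = 0.373). The call was also lost without any 1 of the 4 baseline libraries (adjusted p = 0.0528 to 0.128). At 2dpr immature libraries were at 83.9, 84.8, 86.1 and 114 CPM, a narrow range, with a log2 fold change against 0dpr of 0.82 ± 0.493 (adjusted p = 0.178). Without immature 0dpr replicate 1 that value was 1.71 (adjusted p = 0.00519). In mature mice *Junb* was at 19.8 to 28.9 CPM at baseline, 26.0 to 62.4 CPM at 0dpr and 9.10, 64.8, 89.6 and 162 CPM at 2dpr. Neither step passed the test there (adjusted p = 0.318 and 0.0893), and the second passed it without mature 2dpr replicate 3, the library at 9.10 CPM (log2 fold change 1.39, adjusted p = 0.00782).

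*Atf3*, a stress-induced factor of the ATF and CREB family that can pair with JUN, followed another course. In mature mice it was at 5.24, 9.89, 14.4 and 21.3 CPM at baseline and at 6.39, 11.5, 14.5 and 15.1 CPM at 0dpr, with full overlap (log2 fold change -0.09 ± 0.365, adjusted p = 0.889, edgeR). It then rose to 62.1, 89.3, 103 and 107 CPM at 2dpr, a log2 fold change of 2.93 ± 0.369 (adjusted p = 3.37e-08), with each 2dpr library above each 0dpr library. This was the largest rise of the 10 genes from 0 to 2dpr at either age. In immature mice *Atf3* was at 9.09, 9.87, 11.0 and 12.9 CPM at baseline and at 14.8, 20.3, 22.6 and 82.3 CPM at 0dpr, a log2 fold change of 1.70 ± 0.360 (adjusted p = 0.00339). Those groups do not overlap, but without 0dpr replicate 1, the library at 82.3 CPM, the value was 0.82 (adjusted p = 0.0692). At 2dpr immature libraries were at 63.8, 68.8, 77.2 and 80.2 CPM, a log2 fold change of 1.06 ± 0.341 (adjusted p = 0.0112), and the 0dpr library at 82.3 CPM lies above them all. That call was lost without immature 0dpr replicate 3 or 4 (adjusted p = 0.059 and 0.0607), while without replicate 1 the value was 1.93 (adjusted p = 7.65e-07).

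Among the EGR genes, *Egr1*, a zinc finger factor that follows growth factor and stretch signals, was highest at 0dpr, as *Fosb* was. In immature mice it was at 6.32, 8.96, 10.2 and 13.6 CPM at baseline and at 36.4, 43.6, 57.6 and 319.8 CPM at 0dpr, a log2 fold change of 3.55 ± 0.541 (adjusted p = 0.000148, edgeR). In mature mice it went from 9.42, 11.2, 11.9 and 12.5 CPM to 28.7, 47.9, 80.8 and 100.1 CPM, a log2 fold change of 2.51 ± 0.520 (adjusted p = 0.000688). No 0dpr library of either age falls within its baseline range, and immature replicate 1 stands far above the rest. Without that library the immature value was 2.21 (adjusted p = 0.00165). At 2dpr *Egr1* was at 12.0, 14.6, 17.6 and 23.9 CPM in the immature group, a log2 fold change of -2.74 ± 0.518 (adjusted p = 4.42e-05). In mature mice it was at 3.00, 11.1, 15.5 and 34.3 CPM, a log2 fold change of -1.98 ± 0.503 (adjusted p = 0.00134). The highest mature 2dpr library overlaps the lowest one of 0dpr. Leaving out immature 0dpr replicate 1 gave -1.41 (adjusted p = 0.00428) for the immature fall, and leaving out mature 2dpr replicate 4 gave -2.69 (adjusted p = 0.000103) for the mature one.

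*Egr2*, best known for its role in Schwann cell myelination and also used by macrophages and lymphocytes, had its highest mean at 2dpr, as *Atf3* did. Mature libraries were at 2.43, 4.34, 4.4 and 4.49 CPM at baseline and at 2.37, 2.82, 4.43 and 4.86 CPM at 0dpr (log2 fold change -0.10 ± 0.344, adjusted p = 0.874, edgeR). At 2dpr they were at 9.58, 13.8, 22.0 and 22.1 CPM, a log2 fold change of 2.21 ± 0.334 (adjusted p = 1.05e-06). Immature libraries were at 2.06, 2.87, 3.61 and 5.56 CPM at baseline, 3.90, 4.31, 7.37 and 12.1 CPM at 0dpr, and 16.9, 27.0, 28.1 and 33.1 CPM at 2dpr. The step to 0dpr missed the threshold (log2 fold change 0.97 ± 0.335, adjusted p = 0.0565) and passed it with DESeq2 (adjusted p = 0.0198), while the step to 2dpr was 1.93 ± 0.319 (adjusted p = 6.11e-06). At both ages each 2dpr library exceeds each 0dpr library. *Egr3*, the third EGR gene of the list, was at 0 to 2.65 CPM throughout and was called by edgeR in none of the 17 comparisons fitted with all libraries. With only the libraries compared, it was called higher at 14dpr than at baseline in mature mice (log2 fold change 1.01, adjusted p = 0.0388). That fit called 4217 of all 21204 genes higher.

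*Nr4a1*, an orphan nuclear receptor of the same early wave, was already well expressed at baseline. Immature libraries were at 59.3, 69.5, 72.9 and 74.0 CPM at baseline and at 74.0, 99.1, 172 and 223 CPM at 0dpr, a log2 fold change of 1.04 ± 0.385 (adjusted p = 0.0743, edgeR). Mature libraries were at 43.2, 44.8, 63.3 and 86.5 CPM and then at 65.1, 82.8, 127 and 136 CPM, a log2 fold change of 0.79 ± 0.384 (adjusted p = 0.14). Neither passed the test, although DESeq2 called the immature value (adjusted p = 0.0347). At 2dpr *Nr4a1* fell to 15.2, 24.6, 27.8 and 30.9 CPM in immature mice (log2 fold change -2.53 ± 0.406, adjusted p = 3.88e-06). The fall in mature mice was to 6.11, 17.2, 19.4 and 22.8 CPM (log2 fold change -2.63 ± 0.409, adjusted p = 1.72e-06). All 2dpr libraries lie below all baseline libraries as well as below all 0dpr libraries, at both ages.

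*Ier2*, a small early response protein of the nucleus, rose at 0dpr at both ages. It was at 6.97, 6.99, 7.11 and 8.17 CPM at baseline and at 14.0, 21.2, 22.7 and 46.2 CPM at 0dpr in the immature group, a log2 fold change of 1.82 ± 0.328 (adjusted p = 0.00086, edgeR). Mature libraries went from 8.17, 8.64, 10.6 and 10.9 CPM to 13.2, 15.0, 28.9 and 35.3 CPM, a log2 fold change of 1.26 ± 0.321 (adjusted p = 0.0042). Baseline and 0dpr do not overlap at either age. From 0 to 2dpr it was at 14.3 to 18.7 CPM in immature and 6.11 to 20.6 CPM in mature mice, just outside the threshold (log2 fold changes -0.70 and -0.74, adjusted p = 0.0687 and 0.0513), and inside it with RLE size factors (adjusted p = 0.0387 and 0.0291).

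**Figure D2:**
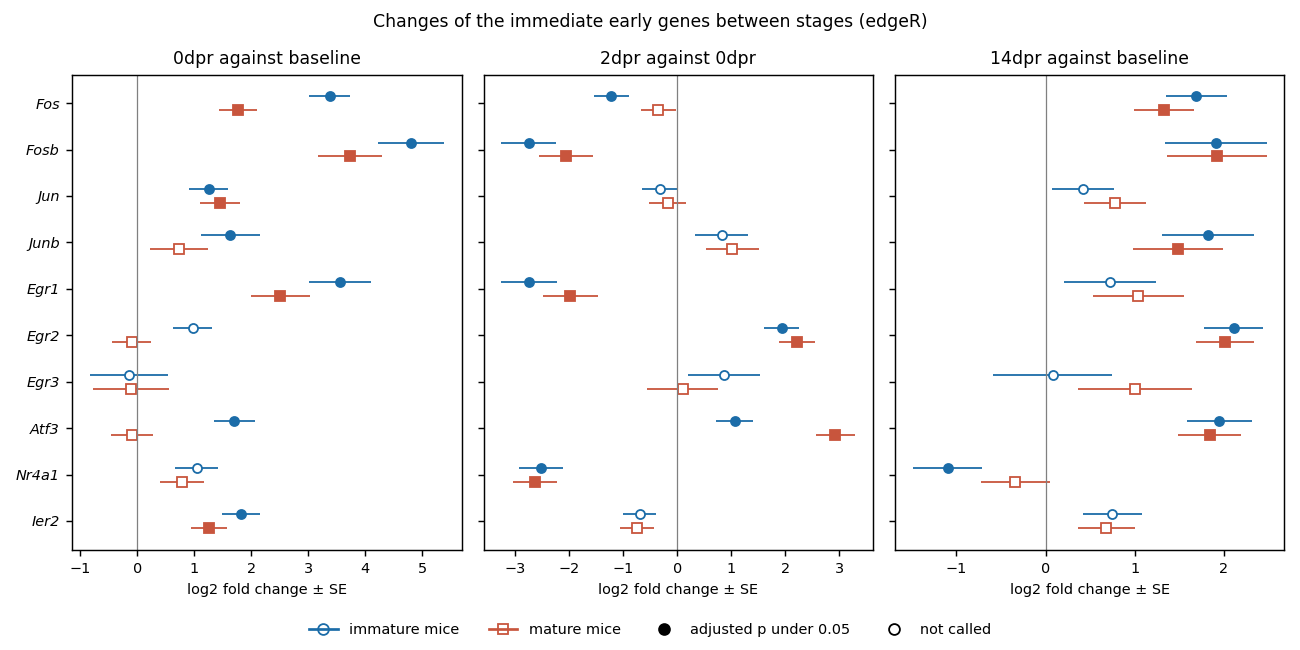
Log2 fold change of each gene (horizontal axis, with bars of 1 standard error) from baseline to 0dpr, from 0 to 2dpr and from baseline to 14dpr, in immature (circles) and mature mice (squares). Filled symbols passed an adjusted p of 0.05 in edgeR's quasi-likelihood test. *Egr2* and *Atf3* are the 2 genes with filled symbols to the right in the middle panel, and *Fosb*, *Egr1* and *Nr4a1* have filled symbols to the left at both ages.

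Marker levels of other cell types differed over the same steps. The summed level of 15 skeletal muscle markers was 76418 to 98990 CPM at baseline and 105576 to 196003 CPM at 0dpr in immature mice. In mature mice it was 40486 to 79531 CPM and then 108169 to 219754 CPM. At 2dpr it was 13800 to 27429 CPM over both ages. The 11 monocyte and macrophage markers summed to 1182 to 2437 CPM at 0dpr and to 8237 to 9916 CPM at 2dpr over both ages, the step at which *Egr2* and *Atf3* rose. None of the markers of either list was at 0 in every library of a group. With a muscle score as a covariate, the rises at 0dpr of *Fos*, *Fosb*, *Jun*, *Egr1*, *Atf3* and *Ier2* in immature mice and of *Fos*, *Fosb* and *Egr1* in mature mice were still called. Of the changes from 0 to 2dpr, those of *Fosb* and *Egr1* in immature mice and of *Fosb* and *Atf3* in mature mice were still called in that fit. The muscle sums of 0 and 2dpr do not overlap at either age. At 0dpr the fit called 737 of all genes higher and 350 lower in immature mice, against 1268 and 989 without the covariate. In mature mice it called 270 and 93, against 2517 and 2258. From 0 to 2dpr it called 926 and 673 in immature mice, against 4617 and 4707. For mature mice it called 847 and 574, against 4812 and 5288. Calls lost in it at 0dpr were *Junb* in immature mice (log2 fold change 1.67, adjusted p = 0.0549) and *Jun* (1.13, adjusted p = 0.162) and *Ier2* (1.47, adjusted p = 0.0591) in mature mice. From 0 to 2dpr it lost *Fos* (-1.91, adjusted p = 0.0535), *Egr2* (1.25, adjusted p = 0.259), *Atf3* (0.87, adjusted p = 0.507) and *Nr4a1* (-1.65, adjusted p = 0.176) in immature mice. In mature mice it lost *Egr1* (-2.51, adjusted p = 0.205), *Egr2* (1.33, adjusted p = 0.369) and *Nr4a1* (-1.52, adjusted p = 0.359) over that step. Of these lost values, those of *Junb*, of *Ier2*, of immature *Fos* and of mature *Egr1* were larger in size with the covariate than without it, and the others smaller. The part of the macrophage markers in the rise of *Egr2* and *Atf3* was not tested.

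**Figure D3:**
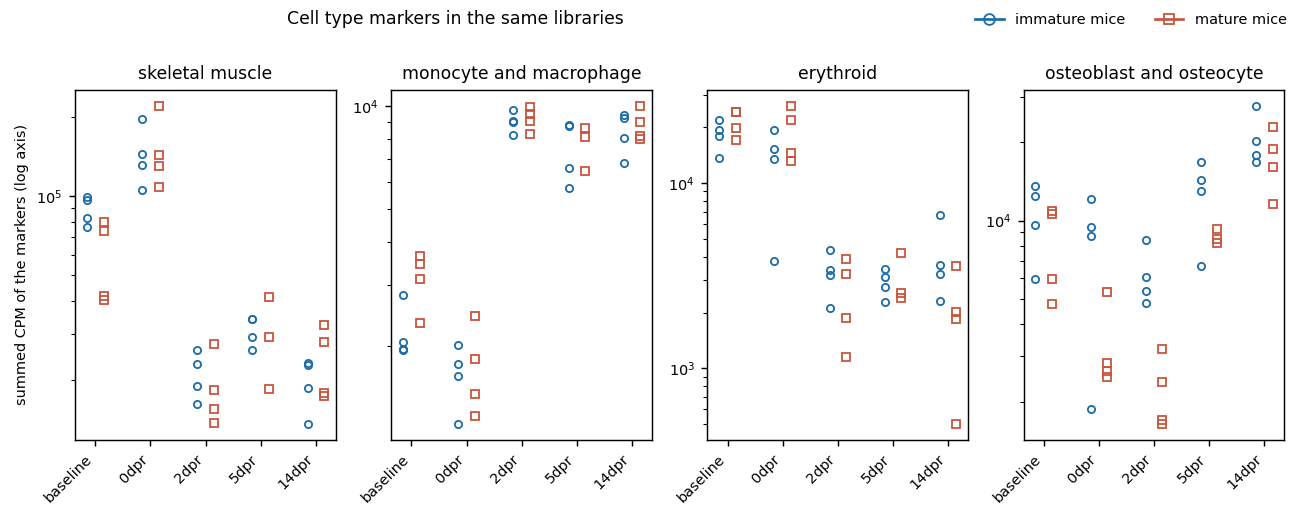
Summed CPM of 4 marker lists (vertical log axis) at each stage in single libraries of immature (circles) and mature mice (squares). Skeletal muscle markers are highest at 0dpr and low from 2dpr on, macrophage markers are high from 2dpr on, and 1 immature 0dpr library has an erythroid sum of 3773 CPM, below the others of its group.

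Single libraries carried much of the spread at 0dpr. Immature 0dpr replicate 1 was the highest of its group for all 10 genes. Without it, the number of genes called at 0dpr against baseline in immature mice was 4, *Fos*, *Fosb*, *Egr1* and *Ier2*, in place of 7. The same library had the lowest erythroid marker sum of its group, 3773 CPM against 13404 to 19211 CPM, and the lowest muscle sum, 105576 CPM. Immature 0dpr replicate 3, the lowest of its group for *Jun*, *Junb* and *Ier2*, had an osteoblast and osteocyte marker sum of 1875 CPM, against 8681 to 12057 CPM in the rest of the group, and the highest mitochondrial share, 8.63%. Mature 0dpr replicate 1 was the highest of its group for 8 genes and replicate 2 the lowest for 7, and replicates 1 and 3 lay above replicates 2 and 4 for *Fos*, *Fosb*, *Jun*, *Junb*, *Egr1*, *Nr4a1* and *Ier2*. Replicates 1 and 3 also had lower neutrophil sums (2294 and 2644 CPM) than replicates 2 and 4 (8540 and 4207 CPM), and higher mitochondrial shares (6.75 and 6.78% against 5.16 and 5.48%). At 2dpr, mature replicate 3 was the lowest of its group for 8 genes, and replicate 4, which had the largest total of that group, 20936406 counts, the highest for 6. The part of marker levels, mitochondrial share and depth in these differences was not tested.

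**Figure D4:**
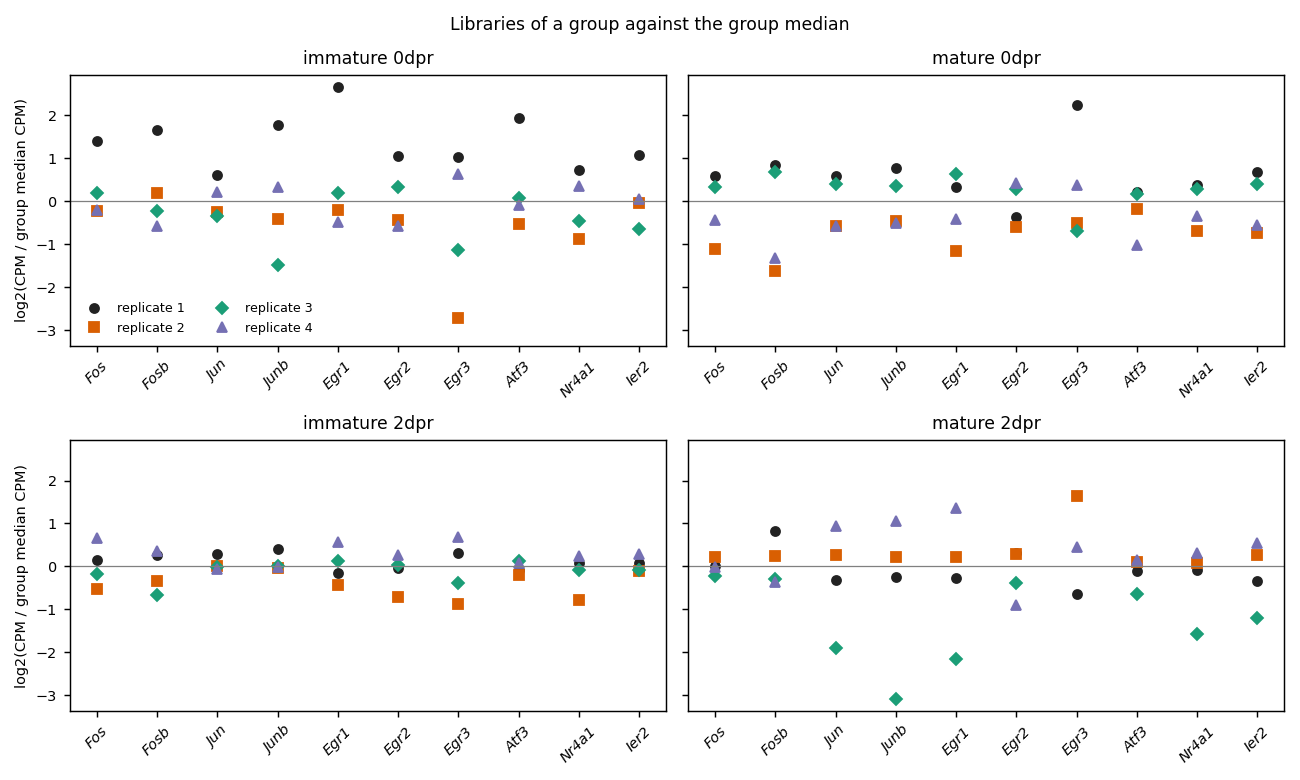
Level of each gene in each library at 0 and 2dpr, divided by the median of its group (vertical axis, log2 scale, 0 is the group median). Immature 0dpr replicate 1 is above 0 for all 10 genes, and mature 2dpr replicate 3 is the lowest for 8 genes (*Egr3*, at 0 CPM there, is not drawn).

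Between successive stages after 2dpr, edgeR with all libraries called members only from 2 to 5dpr in immature mice. For 10 genes, the 0 calls of the other steps are near the shares of all genes given below. From 2 to 5dpr in immature mice 2 genes fell, against 3.68% of all genes called lower, and 0 rose, against 4.37%. The 5dpr range lay below that of 2dpr for 4 members, *Jun*, *Junb*, *Egr2* and *Atf3*, against 9.55% of all genes. *Egr2* fell to 7.65, 9.03, 10.9 and 12.0 CPM (log2 fold change -1.42 ± 0.310, adjusted p = 0.00264, edgeR), below all 2dpr libraries. *Atf3* fell to 24.3, 31.2, 34.1 and 42.7 CPM (log2 fold change -1.14 ± 0.341, adjusted p = 0.0309), and that call was lost in 5 of 8 fits that each left out 1 library, those without 2dpr replicate 3 or 4 or 5dpr replicate 3, 4 or 5 (adjusted p = 0.0608 to 0.119). In mature mice 0 genes were called by edgeR, against 14.5% of all genes in either direction. There 2 members had an unadjusted p under 0.05, and DESeq2 called 1, *Atf3*, at 38.5, 41.9 and 50.6 CPM (log2 fold change -1.05, adjusted p = 0.0507 with edgeR), the 1 member whose 5dpr range lay below that of 2dpr, against 7.97% of all genes. From 5 to 14dpr, edgeR and DESeq2 called 0 members at either age, against 3.18% of all genes by edgeR in immature and 4.18% in mature mice, and 1 member in immature and 0 in mature mice had an unadjusted p under 0.05. That member was *Egr2*, which was also the 1 member with a 14dpr range above that of 5dpr, against 7.43% of all genes. At 5dpr *Fos* was at 27.6 to 72.2 CPM in immature and 41.6 to 76.7 CPM in mature mice. *Junb* was at 39.7 to 55.8 and 40.6 to 85.2 CPM. *Nr4a1* was at 17.1, 20.7, 21.4 and 72.7 CPM in immature and at 21.1, 23.7 and 50.9 CPM in mature mice, so that 1 library of each age stood above the rest.

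At 14dpr several members were above baseline. Neither 2dpr nor 5dpr was compared with baseline, so whether they stayed above it throughout was not tested. In immature mice 5 were higher than at baseline, against 16.4% of all genes called higher, and 1 was lower, against 15.1%. In mature mice 5 were higher, against 17.1%, and 0 lower, against 16.4%. The same 5 genes, *Fos*, *Fosb*, *Junb*, *Egr2* and *Atf3*, were higher at both ages. Ranges at 14dpr lay above baseline for 7 members in immature mice, against 20.0% of all genes, and below it for 1, against 18.9%, and they lay above it for 8 members in mature mice, against 19.2%. These comparisons share the baseline libraries with those of 0dpr. *Egr2* was at 14.3, 14.5, 15.3 and 16.9 CPM in immature mice (log2 fold change 2.11 ± 0.331, adjusted p = 4.44e-06, edgeR) and at 13.9, 14.0, 15.6 and 19.5 CPM in mature mice (log2 fold change 2.01 ± 0.327, adjusted p = 7.85e-06). *Atf3* was at 35.8, 37.3, 44.5 and 47.7 CPM in immature mice (log2 fold change 1.95 ± 0.360, adjusted p = 5.48e-05) and at 40.0, 40.1, 47.8 and 53.0 CPM in mature mice (log2 fold change 1.84 ± 0.356, adjusted p = 9.75e-05). Neither gene overlaps its baseline range at either age.

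The AP-1 genes *Fos*, *Fosb* and *Junb* were also above baseline at 14dpr. *Fos* was at 39.0, 50.7, 53.7 and 54.1 CPM in immature mice (log2 fold change 1.69 ± 0.344, adjusted p = 0.000209, edgeR) and at 60.4, 60.7, 72.9 and 86.3 CPM in mature mice (log2 fold change 1.33 ± 0.334, adjusted p = 0.00186). *Fosb* was at 2.55 to 5.88 CPM in immature and 2.70 to 7.23 CPM in mature mice (log2 fold changes 1.91 and 1.92, adjusted p = 0.00888 and 0.00693). *Junb* was at 54.6, 56.5, 61.0 and 66.0 CPM in immature mice (log2 fold change 1.82 ± 0.515, adjusted p = 0.00603) and at 47.9, 48.9, 60.8 and 114 CPM in mature mice (log2 fold change 1.48 ± 0.505, adjusted p = 0.0213). All of these lie above their baseline ranges. The mature *Junb* call was lost without mature 14dpr replicate 1 (adjusted p = 0.116) and without baseline replicate 1 or 2 (adjusted p = 0.0528 and 0.0587). *Nr4a1* was the gene below baseline in immature mice, at 28.9, 31.7, 32.8 and 35.3 CPM (log2 fold change -1.10 ± 0.391, adjusted p = 0.0292), a call lost in 5 of 8 fits that each left out 1 library, those without 14dpr replicate 1, 3 or 4 or baseline replicate 3 or 4. With the muscle score as a covariate, *Atf3* in immature mice and *Egr2* and *Atf3* in mature mice were still called, and the other calls at 14dpr were lost. In that fit 1203 of all genes were called higher and 612 lower in immature mice, against 3473 and 3194 without the covariate. Mature mice had 2810 called higher and 2285 lower, against 3629 and 3484. In immature mice the lost values were 1.12 for *Fos*, 0.56 for *Fosb*, 1.38 for *Junb*, 1.57 for *Egr2* and -0.38 for *Nr4a1* (log2 fold change, adjusted p = 0.0631 to 0.798). In mature mice they were 0.97 for *Fos*, 1.15 for *Fosb* and 1.19 for *Junb* (adjusted p = 0.104 to 0.232). *Egr1* was at 12.3 to 18.2 CPM in immature and 21.0 to 28.4 CPM in mature mice and *Ier2* at 10.6 to 14.2 and 12.3 to 19.5 CPM, above baseline in mean but not past the test (adjusted p = 0.319 and 0.117 for *Egr1*, 0.0795 and 0.103 for *Ier2*). With only the libraries compared, both genes were called at both ages (adjusted p = 0.0104 and 0.000122 for *Egr1*, 0.00132 and 0.0102 for *Ier2*). That fit called 4547 of all 21204 genes higher in immature and 4217 in mature mice. Muscle markers summed to 13672 to 32412 CPM at 14dpr over both ages.

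Between the ages, 1 call was made with all libraries fitted. At 0dpr *Atf3* was higher in immature mice, against 0.571% of all genes called higher and 0.156% lower, with a log2 fold change of 1.55 ± 0.361 (adjusted p = 0.0273, edgeR) between the libraries given above, which overlap. Leaving out immature 0dpr replicate 1 gave 0.71 (adjusted p = 0.46), and leaving out mature 0dpr replicate 2 or 4 gave adjusted p = 0.0757 and 0.114. With only the 0dpr libraries compared, the value was 1.58 (adjusted p = 0.677), and 0 of all genes were called in that fit. Blocking by replicate number resulted in 1.49 (adjusted p = 0.0713). The labels do not pair the libraries, and the block rests on weak correlations of same-numbered 0dpr libraries (0.109 to 0.207). That block was fitted over all groups and not over the 0dpr pairs alone. At baseline, 2, 5 and 14dpr edgeR with all libraries called 0 members in either direction, against 0.585%, 0.627%, 0% and 0.00943% of all genes, and DESeq2 also called 0. With only the baseline libraries compared, edgeR called *Fos* lower in immature mice (log2 fold change -0.87, adjusted p = 0.0413). In that fit 210 of all genes were called higher and 261 lower. An unadjusted p under 0.05 was found for 1 member at baseline, *Fos* (log2 fold change -0.86, adjusted p = 0.297), for 1 at 2dpr, *Egr2* (0.64, adjusted p = 0.351), and for 0 members at 5 and 14dpr. At 0dpr it was found for 3 members, *Atf3*, *Fos* (0.75, adjusted p = 0.367) and *Egr2* (0.92, adjusted p = 0.238), each higher in immature mice. Immature *Fos* at baseline, 11.0 to 19.9 CPM, lies below mature *Fos*, 21.9 to 33.8 CPM, without overlap. Immature mice lay below mature mice without overlap for 2 members at baseline (*Fos* and *Ier2*), 1 at 5dpr (*Jun*) and 3 at 14dpr (*Fos*, *Egr1* and *Egr3*), against 4.63%, 6.19% and 2.72% of all genes.

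The difference between the ages in the size of each step was tested as an interaction. For 0dpr against baseline, edgeR called 0 members, against 0.0141% of all genes, and 3 members had an unadjusted p under 0.05. *Atf3* (difference of log2 fold changes 1.79 ± 0.511, adjusted p = 0.425), *Fos* (1.61 ± 0.472, adjusted p = 0.431) and *Egr2* (1.07 ± 0.480, adjusted p = 0.577) were those 3, each with the larger value in immature mice. For 2dpr against 0dpr it called 0 members, against 0.0613%, and 1 had an unadjusted p under 0.05, *Atf3* (-1.87 ± 0.490, adjusted p = 0.145), which DESeq2 called (adjusted p = 0.0347). DESeq2 called 0 members in the first interaction. The rises of *Junb* and *Atf3* called at 0dpr in immature mice alone are therefore not shown by edgeR to differ between the ages.

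Levels of different genes can be compared per kilobase of exon. In immature mice at 0dpr *Fos* led, with a mean of 67.9 CPM per kb, followed by *Nr4a1* (40.5), *Jun* (36.3), *Egr1* (25.5) and *Junb* (22.8), while *Fosb* was at 4.77 and *Egr2* at 2.04 CPM per kb. At 2dpr the order had turned, with *Junb* at 40.1 and *Atf3* at 33.7 CPM per kb ahead of *Fos* (29.2), *Jun* (29.1) and *Nr4a1* (7.02). Mature mice at 2dpr had *Atf3* first, with 41.9 CPM per kb, then *Junb* (35.4), *Jun* (32.1) and *Fos* (31.5). *Nr4a1* (19.6 and 16.9 CPM per kb) and *Jun* (15.3 and 13.4) led at baseline in immature and mature mice. Without immature 0dpr replicate 1, *Fos* (47.1 CPM per kb), *Nr4a1* (32.8) and *Jun* (31.2) still led at 0dpr, but *Egr1* (10.2) was below *Ier2* (12.7) and *Junb* (12.5). Leaving out that library was chosen after seeing the data. These orders are descriptions and were not tested.

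Other genes of the early response were taken from lists by role. Of 8 other AP-1 genes, 0 rose at 0dpr at either age, 1 fell in immature mice (*Batf*) and 2 fell in mature mice (*Batf* and *Fosl2*), while 5.98% and 11.9% of all genes were called higher and 4.66% and 10.6% lower in immature and mature mice. *Fosl1*, the FRA1 subunit, came later, from 0.0909 ± 0.0651 CPM (SD, n = 4) at 0dpr to 5.72 ± 0.957 CPM at 2dpr in immature mice and from 0.0659 ± 0.0763 to 5.30 ± 3.49 CPM in mature mice, and was called at both ages. *Batf*, an AP-1 partner in lymphocytes and myeloid cells, rose from 2.15 ± 0.743 to 13.9 ± 2.23 CPM in immature mice over that step (log2 fold change 2.70, adjusted p = 6.36e-09, edgeR). Of the EGR and NR4A genes outside the list, 2 were tested, and both were called higher than baseline at 14dpr and not at 0dpr, at each age. At 14dpr 16.4% of all genes in immature and 17.1% in mature mice were called higher. For 2 genes, 0 calls at 0dpr is near the shares of that step. Among 14 other early transcription factors, 4 rose and 0 fell at 0dpr in immature mice. In mature mice 2 of them rose and 2 fell, which for 14 genes is near the 0dpr shares of all genes given above. *Nfil3* (log2 fold change 1.23, adjusted p = 0.0068) and *Klf4* (0.74, adjusted p = 0.0141) had the largest changes in immature mice, and *Bhlhe40* (0.86, adjusted p = 0.00322) and the Notch target *Hes1* (0.78, adjusted p = 0.00421) in mature mice.

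Of 22 feedback inhibitors of the early response, 6 rose at 0dpr in immature and 4 in mature mice, against 5.98% and 11.9% of all genes. At either age 0 fell, against 4.66% and 10.6%. For 22 genes the mature counts are near those shares. *Zfp36*, whose product destabilizes mRNAs, rose in immature mice from a mean ± SD of 27.1 ± 5.68 CPM to 130.5 ± 122 CPM (log2 fold change 2.26, adjusted p = 0.000147, edgeR) and from 29.8 ± 2.59 to 76.3 ± 31.3 CPM in mature mice (log2 fold change 1.36, adjusted p = 0.00336). *Dusp1*, a phosphatase of MAP kinases, rose in mature mice from 73.0 ± 21.3 to 155 ± 40.2 CPM (log2 fold change 1.09, adjusted p = 0.00416). From 0 to 2dpr, 10 rose and 6 fell in immature mice, where 21.8% of all genes were called higher and 22.2% lower. In mature mice 13 rose and 2 fell, where the shares were 22.7% and 24.9%. *Socs3*, an inhibitor of cytokine signalling, rose there from 15.8 ± 2.76 to 139.8 ± 51.1 CPM in mature mice (log2 fold change 3.15, adjusted p = 1.66e-09). At 14dpr 15 of the 22 stood above baseline at each age, against 16.4% of all genes in immature and 17.1% in mature mice.

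Of 14 secreted and effector genes of the early response, 4 were called higher and 0 lower at 0dpr in immature mice. In mature mice 2 were called higher and 1 lower. Of all genes, 5.98% and 11.9% were called higher and 4.66% and 10.6% lower in immature and mature mice. The mature counts are near those shares for 14 genes. From 0 to 2dpr 5 rose and 1 fell in immature mice, and 8 and 0 did so in mature mice. Over that step 21.8% and 22.7% of all genes were called higher and 22.2% and 24.9% lower. *Ptgs2*, the inducible cyclooxygenase, had a log2 fold change of 2.94 over that step in immature mice (adjusted p = 2.71e-07, edgeR). Of 15 upstream regulators, 4 were called higher and 0 lower at 0dpr in immature mice, beside 5.98% and 4.66% of all genes. The mature counts were 3 higher and 1 lower, which for 15 genes is near the 11.9% and 10.6% of all genes. *Mrtfb*, a partner of serum response factor, rose at both ages (log2 fold changes 0.69 and 0.54, adjusted p = 0.00814 and 0.0176). Of 11 heat shock genes, 0 rose and 1 fell at 0dpr in immature mice, against 3 and 2 in mature mice, beside the same shares of all genes. Median log2 fold changes at 0dpr in immature mice were -0.19 for the other AP-1 genes, 0.32 for the other factors, 0.51 for the inhibitors, 0.75 for the secreted and effector genes, 0.10 for the regulators and 0.07 for the heat shock genes, beside 1.66 for the 10 members.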

How the data were processed

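Gene counts were made by the authors from stranded paired-end libraries, with STAR 2.5.2a and GRCm38 named in the submitters' processing notes. The authors deposited raw counts for 48733 genes, the same counts for the 21204 genes they kept, and a signal table of CPM (reads per 1000000) over TMM-scaled library sizes, which the counts gave again within a relative difference of 5e-15. Levels are these CPM, and mean CPM per kb uses exon lengths of the annotation. All 39 libraries analysed were fitted together by edgeR 4.0.16 (R 4.3.3) with TMM scaling, 1 coefficient for each of the 10 groups, quasi-likelihood tests of 17 comparisons and Benjamini-Hochberg adjustment over the 21204 genes (threshold 0.05). A standard error is the log2 fold change over the square root of F. The fit was tested on simulated data. Alternatives were RLE size factors, DESeq2 1.42.0, other gene filters, only the libraries compared, a replicate block, a muscle score as covariate, and leaving out each library. The muscle score is the mean log2 CPM of the muscle markers.

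The 10 members and the gene lists were chosen with earlier results of these data known. Text names all members, and of each list the 2 genes with the largest change past the threshold, from which those described were taken. Some genes that these rules would name are not reported here. Same-numbered immature and mature libraries at 0dpr deviated together (4 pairs, correlations 0.109 to 0.207, from the data and not from the labels), so the blocked value stands beside that comparison. The block itself was fitted over the libraries of all groups. The run in which each library was sequenced is not in the labels, and run effects were not tested. Promoters and motif shares are from RefSeq (GRCm38.p6), positions of genes from the annotation of GRCm38. Near-identical copies and counting errors between them were not examined.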

Additional observations from a re-analysis of the deposited data

Results flagged for a closer look

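Of 90 groups of 4 libraries, 9 held a library farther from the others than Dixon's test allows at the 95% level. Chance marks about 1 group in 20, and none of these was tested further. Of the 9, 3 were immature 0dpr replicate 1, the highest of its group for *Fos* (307 CPM), *Egr1* (319.8 CPM) and *Atf3* (82.3 CPM). Immature 5dpr replicate 2 was the lowest of its group for *Jun* (48.7 CPM) and the highest for *Nr4a1* (72.7 CPM). That library had the smallest total, 6057756 counts, and an osteoblast marker sum of 6668 CPM, against 12950 to 16747 CPM in the rest of its group. Immature 2dpr replicate 1 was the highest for *Junb* (114 CPM), and mature 0dpr replicate 1 the highest for *Egr3* (2.51 CPM). Mature baseline replicate 2 was the lowest for *Egr2* (2.43 CPM), and immature baseline replicate 4 the highest for *Ier2* (8.17 CPM), within a narrow range.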

How the results depend on the processing

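Of 37 member values past the threshold, 37 were still called with RLE size factors, with DESeq2, with edgeR's own gene filter and with all genes of at least 1 count, 30 with only the libraries compared, 33 with the replicate block and 18 with the muscle score as a covariate. Over the fits that left out 1 library, 269 of 296 were still called. No called value changed direction. With only the libraries compared, the number of members called was 2 for 0dpr against baseline in immature mice, 4 and 1 for 5dpr against 2dpr in immature and mature mice, 1 for 14dpr against 5dpr in immature mice, 9 for 14dpr against baseline at each age, and 1 at baseline and 0 at 0dpr between the ages. In that fit edgeR called 34 of all genes higher and 14 lower at 0dpr in immature mice, against 1268 and 989 with all libraries. For 5dpr against 2dpr it called 1463 and 1525 in immature and 408 and 306 in mature mice. For 14dpr against 5dpr in immature mice it called 1012 and 863. For 14dpr against baseline it called 4547 and 4161 in immature and 4217 and 4111 in mature mice. Between the ages it called 210 and 261 at baseline and 0 of all genes at 0dpr. With the muscle score, 3 members were called for 0dpr against baseline in mature mice and 2 and 2 for 2dpr against 0dpr. For 5dpr against 2dpr in immature mice it was 1 member, and 1 and 2 for 14dpr against baseline in immature and mature mice. Of 21204 genes, that fit called 270 higher and 93 lower for 0dpr against baseline in mature mice. For 2dpr against 0dpr it called 926 and 673 in immature and 847 and 574 in mature mice. For 5dpr against 2dpr in immature mice it called 694 and 513. For 14dpr against baseline it called 1203 and 612 in immature and 2810 and 2285 in mature mice. Each of these counts was below that of the fit without the covariate. For 5dpr against 2dpr in mature mice the number of members called was 1 with RLE, DESeq2 and either other gene filter. For the age difference of 2dpr against 0dpr it was 1 with DESeq2. The causes of these shifts were not tested.

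With the replicate block, 5dpr against 2dpr in immature mice had 1 call and immature against mature mice at 0dpr had 0. The block also lost *Jun* (1.04, adjusted p = 0.11) and *Junb* (1.03, adjusted p = 0.283) at 0dpr against baseline in immature mice, where same-numbered libraries did not deviate together (correlations -0.0204 to 0.0132), so that the numbers are no pairing there.

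Leaving out 1 library gave 4 to 9 members called for 0dpr against baseline in immature and 5 in mature mice, 5 to 6 for 2dpr against 0dpr at each age, 1 to 2 and 0 to 1 for 5dpr against 2dpr, 0 for 14dpr against 5dpr, 5 to 6 and 4 to 6 for 14dpr against baseline, and 0 to 1 between the ages at 0dpr. RLE factors moved members by -0.11 and -0.10 (log2) for 2dpr against 0dpr, beside which no call was lost. Depth limits *Egr3*, with a median of 11 reads per library.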

Other observations

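Within groups the members varied together. After each group's mean was taken away, 45 of the 45 pairs of members had a positive correlation over the 39 libraries, from 0.08 (*Jun* with *Egr2*) to 0.86 (*Jun* with *Junb*), with a median of 0.54. These points share library, depth and tissue composition. Among them is immature 0dpr replicate 1, the highest of its group for all 10 genes. The share of positive pairs among other genes is not given here. *Junb* and *Ier2* had 0.83 and *Egr1* and *Ier2* 0.80. Spread beyond counting error, as the biological coefficient of variation, had a median of 0.356 for the members and 0.289 for all genes tested. It was largest for *Egr3* (0.514), *Junb* (0.476), *Egr1* (0.475) and *Fosb* (0.474), which exceeded 74.4 to 78.5% of all genes. *Egr2* (0.292), *Ier2*, *Fos*, *Jun* and *Atf3* were near the middle, above 50.4 to 56.0% of all genes, and *Nr4a1* was above 61.9%.

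Genes whose levels over the 39 libraries were most like the mean of the members included *Dagla* (Pearson r = 0.81), *Ece1* (0.79), *Uso1* (0.77), *Zfp36l1*, *Zfp36* and *Mrtfb* (0.76 each) and *Irf2bpl* (0.75). Of these, *Zfp36l1* and *Zfp36* were in the list of feedback inhibitors and *Mrtfb* in that of upstream regulators. *Dagla*, which makes the endocannabinoid 2-arachidonoylglycerol, had means of 6.61 CPM at baseline and 13.5 CPM at 0dpr in immature mice and of 5.71 and 11.6 CPM in mature mice.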
